A study of Mus musculus with 13 samples.

Results

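The 2 genes described here, Nr2f1 and Nr2f2, encode the chicken ovalbumin upstream promoter transcription factors COUP-TFI and COUP-TFII. They were taken by name from the deposited tables of counts: 1 of the 2 (Nr2f1) from the 15114 genes of the table of dissociated cells, and both from the 32285 genes of the table of tissue spots. Nr2f2 has no entry under that name among the genes of the dissociated cells, so it could not be analysed there. The genes were chosen from their levels across clusters of cells, dissection levels and spots, so those levels are given as descriptions without a test. The study profiled the mouse retrosplenial cortex, a midline cortical area. One assay counted RNA in 765 neurons microdissected and dissociated from acute slices of WT mice of strain B6, in 11 samples (numbered 1 to 3 and 11 to 18) from 3 animals, with cells pooled across slices and each cell marked as coming from the anterior (256 cells), medium (217) or posterior (292) dissection level. The other assay used 2 cryosections of 10 µm from flash-frozen WT brains, stained for NeuN and DAPI and placed on Visium slides, where a spot captures RNA from a small area that can hold several cells. They are called section 4 (1022 spots) and section 8 (951 spots) after the suffix of the spot names. No treatment or age is given for either assay, and animals of the sections are not named.

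COUP-TFs are orphan nuclear receptors that bind DNA as dimers at repeats of the hexamer AGGTCA and act mostly as repressors, together with corepressors and zinc finger partners. In the developing cortex, Nr2f1 is known for setting caudal and lateral area identity and for restraining the production of layer 5 neurons that project below the cortex. Nr2f2 is known in the caudal ganglionic eminence and its interneurons, in the ventral and caudal cortex, and in veins and mesenchyme.

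The 250 bases before the annotated start of each gene are shown because the DNA element that the 2 proteins recognise was searched for there. They come from RefSeq, build GRCm38.p6, on the minus strand and written 5′ to 3′ in the sense of the gene. The Nr2f1 window is chr13:78198874-78199123 and the Nr2f2 window chr7:70366747-70366996. Capitals would mark AGGTCA on either strand, and neither window holds it.
Nr2f1: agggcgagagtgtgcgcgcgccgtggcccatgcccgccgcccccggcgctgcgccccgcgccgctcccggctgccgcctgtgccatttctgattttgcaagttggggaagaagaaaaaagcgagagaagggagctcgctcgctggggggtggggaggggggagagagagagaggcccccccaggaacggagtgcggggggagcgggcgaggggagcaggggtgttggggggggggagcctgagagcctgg
Nr2f2: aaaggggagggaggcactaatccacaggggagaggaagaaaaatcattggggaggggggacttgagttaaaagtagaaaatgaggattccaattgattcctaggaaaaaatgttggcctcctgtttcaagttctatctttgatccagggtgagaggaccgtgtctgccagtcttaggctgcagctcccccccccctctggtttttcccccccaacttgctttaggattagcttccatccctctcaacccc
Of all 32851 windows of this length in the table, 14.02% hold AGGTCA. The Nr2f1 window is 72% G or C and the Nr2f2 window 50%, against a median of 52.4% over all windows. Of the 15 genes named below for their likeness to a COUP-TF gene, 8 had a window (9 windows in all), and 0 of these windows held AGGTCA. The match of letters is a description only.

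The cells were checked against markers of their label. Slc17a7, the vesicular glutamate transporter of cortical excitatory neurons, had a count in 756 of 765 cells. Gad1 and Gad2, the enzymes that make the inhibitory transmitter GABA, had 47 and 15 counts in all. Among astrocyte and oligodendrocyte markers, Aldh1l1 (25.04 CPM, the sum of its counts scaled to a fixed total of all counts) and Mbp (90.5 CPM) were abundant, and Aqp4, Gfap, Slc1a3, Gja1, Mog and Mag lay at 0.0946 to 2.73 CPM. Totals per sample ran from 2306470 to 15974543 counts, with a median of 138331 per cell.

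Nr2f1 was detected in about as many cells as not. It had 8895 counts, in 410 of 765 cells (53.6%, exact binomial 95% interval 49.99 to 57.2%), with a median of 16 and at most 162 counts in a cell that held any. Over the 11 samples the lowest level was 57.2 CPM, the median 86.9 CPM and the highest 117 CPM (mean 80.5 ± 19.5 CPM, SD, n = 11). The 3 samples of animal 1 averaged 88.3 ± 28.7 CPM (SD, n = 3), the 4 of animal 2 averaged 84.6 ± 15.2 CPM and the 4 of animal 3 averaged 70.6 ± 16.6 CPM, and the 3 ranges overlapped.

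Among 11 clusters of cells, made without the COUP-TF genes, Nr2f1 was highest in cluster 2 (122 cells), where Thsd7a, Pygm, Eps8l2, Hsd11b1 and Tnnc2 led. Its level there was 155 CPM in animal 1, 149 CPM in animal 2 and 110 CPM in animal 3 (mean 138 ± 24.5 CPM, SD, n = 3), the highest of any cluster in each animal among sums of at least 5 cells. Nr2f1 had a count in 88.5% of the cells of cluster 2 (exact 95% interval 81.5 to 93.6%) and in 81.7% after thinning each cell to 50000 counts, which left out 7 of its cells. Cluster 2 held 33.9% of all Nr2f1 counts and 19.99% of the counts of all genes.

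Cluster 4 (74 cells) was layer 6 intratelencephalic-like, with Oprk1, Osr1, Car12 and Penk leading, and its neurons are the kind that connects cortical areas. Nr2f1 stood there at 127, 93.7 and 67.5 CPM in animals 1, 2 and 3 (mean 96.1 ± 29.9 CPM, SD, n = 3). Cluster 1 (203 cells), led by Calb1, a calcium buffer of superficial neurons, was close to it at 127, 81.3 and 75.9 CPM (94.6 ± 27.9 CPM). In both clusters the range of the animals overlapped that of cluster 2, so the order of these 3 clusters did not exceed the spread between animals, although cluster 2 was the highest within each animal.

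The middle of the order was less well resolved. Cluster 6 (70 cells; Ptprm, Trib2, Aldh1l1) had 142 CPM in animal 2 and 75.5 CPM in animal 3, while its 5 cells of animal 1 held 0 counts, which allows up to 11.7 CPM (3 counts). Cluster 5 (71 cells) was layer 6 corticothalamic-like, with Foxp2, Syt6, Rprm and Crym leading, and had 85.5, 39.6 and 48.6 CPM in animals 1, 2 and 3 (57.9 ± 24.3 CPM, SD, n = 3). Clusters 3 (76 cells; Qrfpr, C1ql2, Reln) and 9 (24 cells; Cyr61, Deptor, Il1rapl2) had at least 5 cells in animals 1 and 2 only, with 40.1 and 69.0 CPM in cluster 3 and 34.4 and 62.8 CPM in cluster 9. The 11 cells of cluster 10, which was layer 6b-like by Cplx3, Ctgf, Nxph4 and Moxd1, had 39.3 CPM in the 1 animal with at least 5 of them. Neighbours in this stretch overlapped.

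The low end held cluster 7 (65 cells; C1ql2, Nrtn, Nefh), cluster 8 (38 cells; Cxcl14, Cbln4) and cluster 11 (11 cells; Kcnip1, Nxph1, Pvalb). Cluster 7 had 22.5, 18.2 and 24.7 CPM in animals 1, 2 and 3 (21.8 ± 3.34 CPM, SD, n = 3), a range that did not overlap that of clusters 1, 2, 4 or 5. In clusters 3 and 7 all 4 markers of layer 5 neurons that project below the cortex led (Fezf2, Bcl11b, Parm1 and Chst8), but none was among their 10 leading genes, and both stayed unnamed. Cluster 8 had 42.5 and 6.24 CPM in animals 2 and 3, and was shallow, its median cell holding 77922 counts (138331 over all cells). Cluster 11 held 0 Nr2f1 counts of 1207720, which allows up to 2.48 CPM, and 0 of 11 cells with a count allow a share of up to 27.3%.

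**Figure D1:**
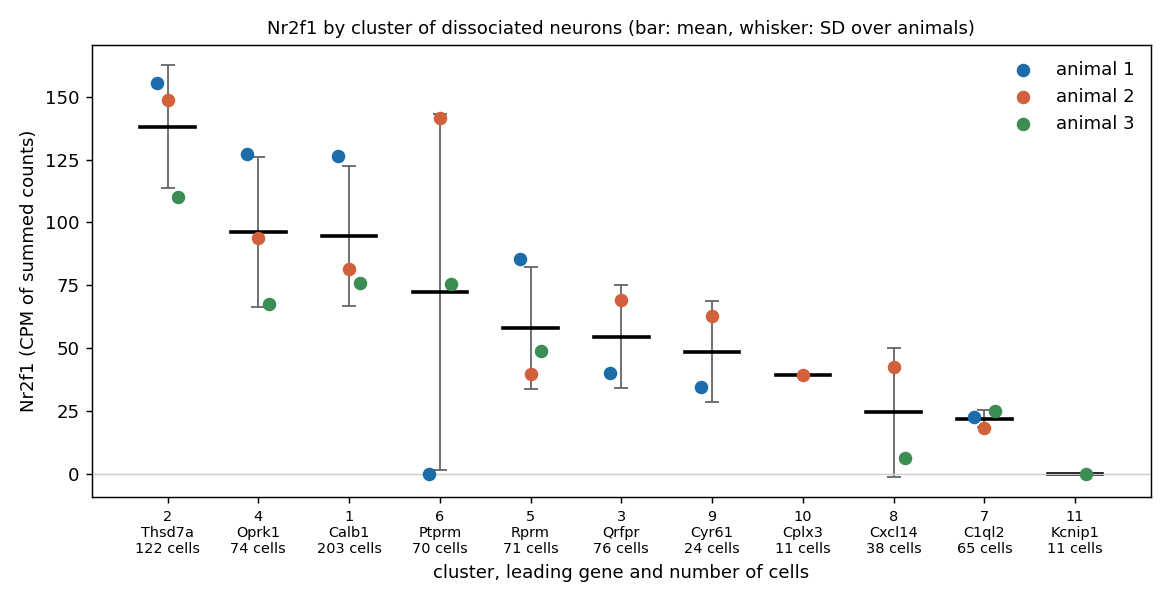
Nr2f1 in sums of counts per cluster and animal, in CPM, with clusters ordered by their mean. Points are animals with at least 5 cells, bars the mean and whiskers the SD. Cluster 2 stands at 110 to 155 CPM and cluster 7 at 18.2 to 24.7 CPM, and cluster 6 is spread from 0 to 142 CPM.

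Single cells varied widely inside a cluster. In cluster 2 the middle 50% of the cells lay between 30.5 and 194 CPM, with a median of 106 CPM. In cluster 1 the median cell had 19.0 CPM and the upper quartile was 135 CPM. In clusters 3, 5, 6, 7, 8, 10 and 11 the median cell had 0 CPM. Among cells with a count, the median was 132 CPM in cluster 2, 134 CPM in cluster 4, 125 CPM in cluster 5 and 144 CPM in cluster 6. It was 67.1 CPM in cluster 3, 51.8 CPM in cluster 7 and 30.8 CPM in cluster 9, where 58.3% of the cells had a count. The highest such median, 154 CPM, was that of cluster 8 and rested on 6 cells. Clusters 2 and 5 thus lay far apart in the share of cells with a count (88.5% and 31.0%, or 81.7% and 23.2% after thinning) and close together in the level of those cells. Cluster 7 was low in both measures. Only the share was thinned, not the level of cells with a count. The median cell held 192858 counts in cluster 2 and 101787 in cluster 5.

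The same cells were split by single marker genes into those with and without a count. Of the 32 markers with at least 5 cells on both sides in every animal, Nr2f1 was higher in cells with the marker in all 3 animals for 8, and lower in all 3 for 7. The split was not made for genes outside the marker lists, so nothing is read from these 2 counts. Tnnc2, the fast skeletal troponin C gene that marks a retrosplenial group, went with the highest mean level: cells with a count had 183, 132 and 97.2 CPM of Nr2f1 in animals 1, 2 and 3, and cells without one 71.0, 76.1 and 64.3 CPM. The 2 other markers of that group, Scnn1a, a sodium channel subunit (130 against 62.9 CPM, means of 3 animals), and Eps8l2 (120 against 69.2 CPM), followed in the same direction. In all 3 cases cells with the marker lay above cells without it in every animal.

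At the other end of the order were Syt6, Ctgf, Rprm and Bcl11b, all markers of deep neurons. Some other markers of deep neurons did not share that direction in every animal. Cells with a Syt6 count had 7.34, 28.1 and 25.4 CPM of Nr2f1, against 86.2, 85.7 and 71.6 CPM in the rest. Cells with Bcl11b, which encodes the COUP-TF-interacting protein CTIP2, had 55.7, 54.0 and 42.9 CPM, against 120, 109 and 84.3 CPM without it. Crym, a thyroid hormone binding protein, gave 56.6 ± 6.98 CPM with and 98.04 ± 15.02 CPM without a count (SD, n = 3). The 2 sets of animals did not overlap for Syt6, Ctgf, Bcl11b or Crym, and overlapped for Rprm. How often this happens over all genes was not counted. Of other markers of deep neurons, Foxp2 (layer 6 corticothalamic) and Parm1 (layer 5) had lower means with a count (57.1 against 80.3 CPM and 78.0 against 82.7 CPM). With Foxp2, Nr2f1 was lower in animal 1 (13.3 against 87.8 CPM), level in animal 2 (83.3 CPM on both sides) and higher in animal 3 (74.8 against 69.8 CPM). Parm1 went with higher Nr2f1 in 2 of 3 animals. Osr1 (layer 6 intratelencephalic) did so in 1 of 3, with means of 88.5 CPM with and 79.2 CPM without a count. Cplx3, a layer 6b marker like Ctgf, went with higher Nr2f1 in 2 of 3 animals (82.8 against 78.4 CPM). Scx, of the layer 5 intratelencephalic list, went with higher Nr2f1 in 3 of 3 animals (120 against 77.3 CPM, 33 cells with a count). The other markers of that list, Deptor (76.9 against 80.4 CPM) and Il1rapl2 (71.3 against 79.1 CPM), did so in 2 of 3, with lower means. Calb1 split the cells with no steady direction: Nr2f1 was higher with Calb1 in animal 1 (104 against 77.1 CPM), lower in animal 2 (71.2 against 91.7 CPM) and alike in animal 3 (69.8 against 70.3 CPM).

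Glial markers differed in direction. For Mbp, the 488 cells with a count had 72.1 ± 4.13 CPM and the others 97.5 ± 20.1 CPM (SD, n = 3), lower in 3 of 3 animals, with a median depth of 150670 against 113143 counts. For Aldh1l1 it was the reverse, at 93.7 against 73.9 CPM and higher in 3 of 3 animals, and for Mag Nr2f1 was higher in 2 of 3 (88.8 against 82.9 CPM in animal 1, 106.9 against 81.8 in animal 2, 29.2 against 71.1 in animal 3). The part of glial RNA in the other splits was not tested.

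**Figure D2:**
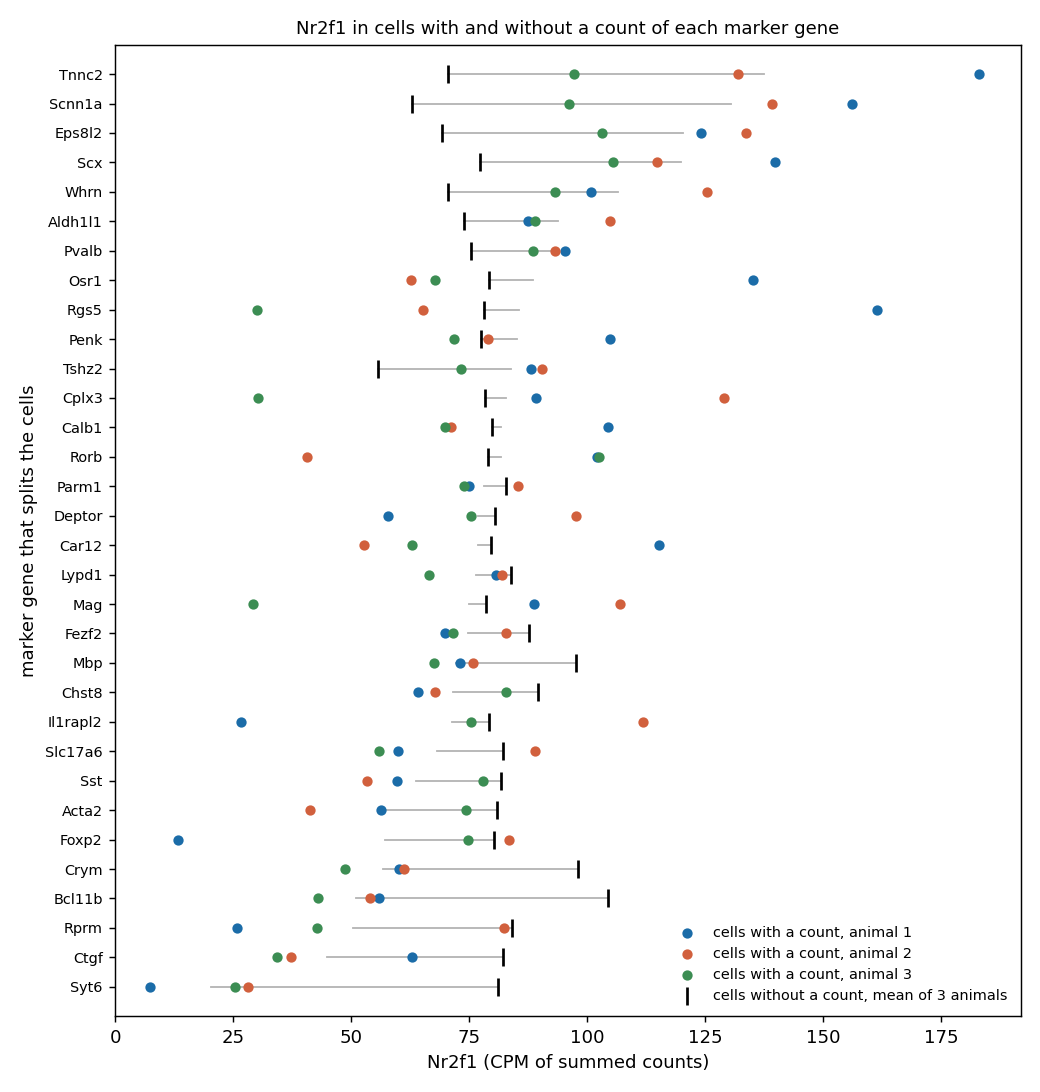
Nr2f1 level, in CPM of summed counts, in cells with a count of each of 32 marker genes (points, 1 per animal) and in cells without one (black ticks, mean of 3 animals). The grey line joins the 2 means. Tnnc2 and Scnn1a lie at the top and Syt6, Ctgf, Rprm and Bcl11b at the bottom.

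Across dissection levels Nr2f1 stayed within the spread between animals. The anterior level had 108, 77.0 and 71.5 CPM in animals 1, 2 and 3 (85.5 ± 19.7 CPM, SD, n = 3). The medium level had 86.6, 79.3 and 78.7 CPM (81.5 ± 4.40 CPM), and the posterior level 68.2, 99.2 and 61.2 CPM (76.2 ± 20.2 CPM). The 3 levels overlapped, animals 1 and 3 being lower and animal 2 higher at the posterior than at the anterior level. Each cluster was also given its level over all its cells pooled, not the mean over animals (80.0 and 94.6 CPM in cluster 1). Weighted by their shares of the counts of each animal and level, the clusters would give 76.3 ± 3.19, 78.4 ± 6.42 and 72.4 ± 3.51 CPM.

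In the fit over all 13628 genes tested (edgeR, 9 sums of counts per animal and level), the Nr2f1 log2 fold change was -0.11 (SE 0.23) for medium against anterior and -0.17 (SE 0.23) for posterior against anterior, and neither was called. One gene was called in each comparison (0.00734% of those tested, called meaning adjusted p below 0.05 with a change of 1 log2 unit or more), and since Nr2f1 was chosen partly on this contrast nothing is read from that. The called gene was Ptgds, a prostaglandin synthase of glia and meninges, in both cases (249 CPM at the anterior level, 2.88 at the medium and 1.82 at the posterior level), named after its values were seen. With the animal as a block, which pairs the levels of the same animal, 14 genes were called at the posterior level and Nr2f1 stood at -0.17 (SE 0.21). Without animal 1 the 2 values for Nr2f1 changed sign, to 0.08 at the medium and 0.09 at the posterior level, and 0 genes were called at the medium level (381 at an unadjusted p under 0.05; 6 by DESeq2 with all animals).

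Within clusters the levels went different ways. In cluster 1 Nr2f1 was 60.1 CPM at the anterior and 116 CPM at the posterior level in animal 2, and 56.3 and 108 CPM in animal 3. In animal 1 it was 131 CPM at the anterior level, and its 2 posterior cells are too few to compare. In cluster 2 it was 195 CPM at the anterior and 154 CPM at the posterior level in animal 1, and 182 and 75.6 CPM in animal 3, while animal 2 had 151 CPM at both with 3 posterior cells. Cluster 1 was thus higher and cluster 2 lower at the posterior level in the 2 animals that could be compared in each, and the difference between clusters was not tested. In cluster 4 the direction differed between animals, from 141 to 54.7 CPM in animal 1, 95.7 to 149 CPM in animal 2 and 90.8 to 36.5 CPM in animal 3.

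**Figure D3:**
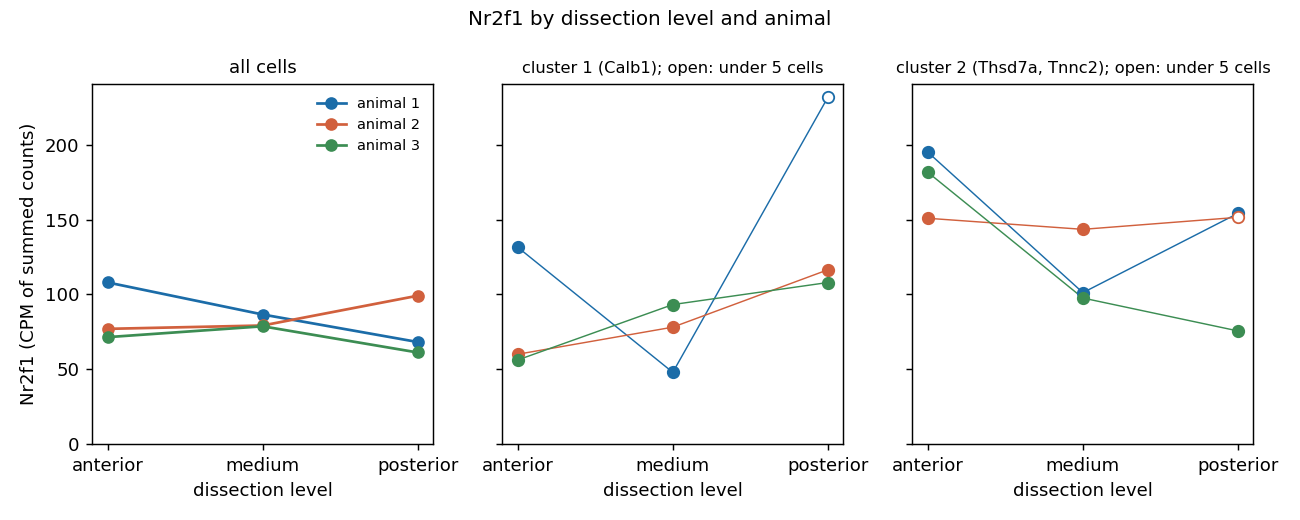
Nr2f1 in CPM of summed counts at the 3 dissection levels, 1 line per animal, over all cells and in clusters 1 and 2. Open points rest on fewer than 5 cells. Over all cells the ranges of the 3 levels overlap (values from 61.2 to 108 CPM), and in cluster 1 animals 2 and 3 end at 116 and 108 CPM.

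Genes around the COUP-TFs were followed in the same fit. Of the 10 other genes of the NR2 list (orphan receptors and their RXR partners) 5 were tested, and 0 were called in either direction at either level. Nr2f6, the third COUP-TF-related gene, stood at 17.7 CPM at the anterior and 17.8 CPM at the posterior level (log2 fold change -0.00300, SE 0.43). All 6 cofactors were tested and 0 were called at either level. Among them Bcl11b had 79.4 CPM at the anterior and 238 CPM at the posterior level (log2 fold change 1.57, SE 0.33, edgeR adjusted p = 0.268, higher in 3 of 3 animals without overlap), and its adjusted p was 0.0493 with the animal as a block. Bcl11a, the related CTIP1 gene, had 259 and 276 CPM (0.08, SE 0.15).

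Of 20 cortical area patterning genes 16 were tested and 0 called. Crym (88.6 against 375 CPM at the posterior level; log2 fold change 2.06, SE 0.34, edgeR adjusted p = 0.0945) and Fezf2, a factor that specifies layer 5 output neurons (49.9 against 151 CPM; 1.58, SE 0.29, edgeR adjusted p = 0.112), were called higher with the animal as a block (adjusted p = 0.00957 and 0.0437). Emx2, which sets caudal and medial cortical identity, had 6.61 CPM at the anterior and 0.815 CPM at the posterior level (-2.99, SE 1.08). All 4 genes of a list of reported COUP-TF targets were tested and 0 called. Nrp1, an axon guidance receptor, had 28.2 and 71.1 CPM (1.33, SE 0.34, edgeR adjusted p = 0.466).

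The posterior sums of the 3 animals lay apart from the anterior ones for 2 of 6 cofactors (Bcl11b and Zfpm2), 4 of 16 patterning genes (Emx2, Crym, Fezf2 and Etv1), 1 of 4 targets (Nrp1) and 0 of 5 NR2 genes, against 11% of all genes tested. At the medium level 1 gene of each list lay apart from its anterior values (Nr2c2, Ncor1, Tbr1 and Nrp1), against 8.75% of all genes. Median log2 fold changes at the posterior level were -0.22 for the NR2 genes, 0.37 for the cofactors, -0.04 for the patterning genes and 0.68 for the targets, beside 0.00604 over all genes. Bcl11b, Crym and Fezf2 also differed widely between clusters: Bcl11b reached 513 CPM in cluster 3 and 441 in cluster 7, but only 0.922 CPM in cluster 1 and 3.48 in cluster 2. Cluster 3 held 45.8% of the posterior cells of animal 1, 37.6% of those of animal 2 and 1.80% of those of animal 3, and 0% of the anterior cells of each. The part of cluster composition in the level values of these genes was not tested.

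Of the 5 genes most like Nr2f1 across cells, 3 were among the 10 leading genes of cluster 2 (Pygm, Hsd11b1 and Thsd7a). Likeness was Pearson's r of logged counts within each animal (152, 304 and 309 cells), taking the lowest of the 3 over 11149 genes. Pygm, muscle glycogen phosphorylase (r of 0.22 to 0.25), Mmel1, a membrane peptidase (0.22 to 0.26), Hsd11b1, which regenerates active glucocorticoid (0.20 to 0.29), Atp1b2, a sodium pump subunit (0.20 to 0.38), and Thsd7a (0.20 to 0.26) ranked highest, and no other gene reached 0.2 in all 3 animals. Thsd7a stood at 332 CPM in cluster 2 and at no more than 12.05 CPM in any other, whereas Atp1b2 was also high in cluster 6 (118 CPM against 190 CPM in cluster 2). At the opposite end were Bcl11b (-0.26 to -0.18), Crym (-0.28 to -0.15) and Mtap1b, a microtubule protein (-0.18 to -0.15). The cells of an animal share libraries and depth, and correlations this weak in sparse counts are a description, not a finding.

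In tissue, the 2 genes had different maps. Nr2f1 had 1340 counts in section 4 (159 CPM) and 966 in section 8 (151 CPM), with a count in 68.5% of spots (exact 95% interval 65.5 to 71.3%) and 61.1% (57.9 to 64.2%). Nr2f2 had 425 counts in section 4 (50.4 CPM) and 341 in section 8 (53.4 CPM), in 28.0% (25.2 to 30.8%) and 23.0% (20.4 to 25.8%) of spots. For both genes the CPM of the sections were close while the share of spots was lower in section 8, whose median spot had 6705 counts against 8267 in section 4. A spot held at most 9 and 6 counts of Nr2f1 in sections 4 and 8, and at most 7 and 14 of Nr2f2. Spots with 3 or more counts held 44.0% and 34.2% of the Nr2f1 counts, and 25.9% and 32.6% of the Nr2f2 counts. A spot count cannot tell fewer cells of a type from less RNA per cell.

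The 2 genes were nearly unrelated from spot to spot. Pearson's r of their logged counts was 0.02 over 1022 spots in section 4 and 0.07 over 951 in section 8. Nr2f1 had a count in 72.0% of spots with Nr2f2 and in 67.1% of the others in section 4, and in 66.2% and 59.6% in section 8. Nr2f6 had 28.2 and 29.1 CPM, and its r with either gene lay between -0.00417 and 0.0282 in the 2 sections.

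Spots were grouped into 10 zones by expression, with both COUP-TF genes left out and each gene centred within its section. Nr2f2 was concentrated in zone 2, led by Nnat, Calb2, Dcn, Trh and Dlk1. It stood there at 184 CPM in section 4 (exact Poisson 95% interval 156 to 214 CPM, 115 spots) and 186 CPM in section 8 (160 to 216 CPM, 147 spots). Zone 2 held 37.6% and 52.2% of all Nr2f2 counts of the sections, in 10.3% and 14.97% of their total counts, and 73.0% and 63.9% of its spots had a count. Zone 1, led by Sst, Nr4a2 and Ccn2, came next with 83.2 and 71.2 CPM, and the intervals of the 2 zones did not overlap in either section.

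Elsewhere Nr2f2 was low. Zone 3 was led by Tshz2, Nrep, Cbln1, Etv1 and Hsd11b1. It held 8 counts in section 4 (8.30 CPM, interval 3.58 to 16.3 CPM) and 10 in section 8 (11.8 CPM, 5.64 to 21.6 CPM). Zones 4, 5, 6 and 8 had 10.9 to 23.1 CPM and overlapped zone 3 in their intervals. Zone 7, led by the meningeal and astrocytic genes Ptgds, Mgp and Gfap, had 44.4 and 66.5 CPM, zone 9, led by haemoglobin genes, 49.7 and 60.3 CPM, and zone 10 (Penk, Wfs1), with spots in section 4 only, 60.1 CPM.

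Nr2f1 was spread over all zones within a narrower range. It was high in zone 8, led by Rorb, a nuclear receptor of layer 4 (237 CPM in section 4, 201 to 278; 209 CPM in section 8, 173 to 251), and in zone 4, led by the superficial genes Rasgrf2, Lamp5 and Cux2 (199 and 215 CPM). Zone 7 had 178 CPM in section 4 and 263 CPM in section 8. Zone 2, the Nr2f2 zone, had 174 and 173 CPM. Nr2f1 was low in zone 3 (102 CPM, 82.5 to 124, and 94.1 CPM, 74.6 to 117), where Nr2f2 was also low. Hsd11b1, a leading gene of zone 3, also led cluster 2 of the cells, where Nr2f1 was highest. C1ql2, another leading gene of zone 3, also led clusters 3 and 7, where Nr2f1 was lower (means of 54.5 and 21.8 CPM). In section 8 Nr2f1 was likewise low in zone 5, led by Ighm, Mobp and Foxp2 (134 and 94.3 CPM in sections 4 and 8). The same held for zone 6, led by Myl4 and Fezf2 (136 and 107 CPM). The intervals of zones 5 and 6 overlapped that of zone 3. Intervals cover counting error only.

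**Figure D4:**
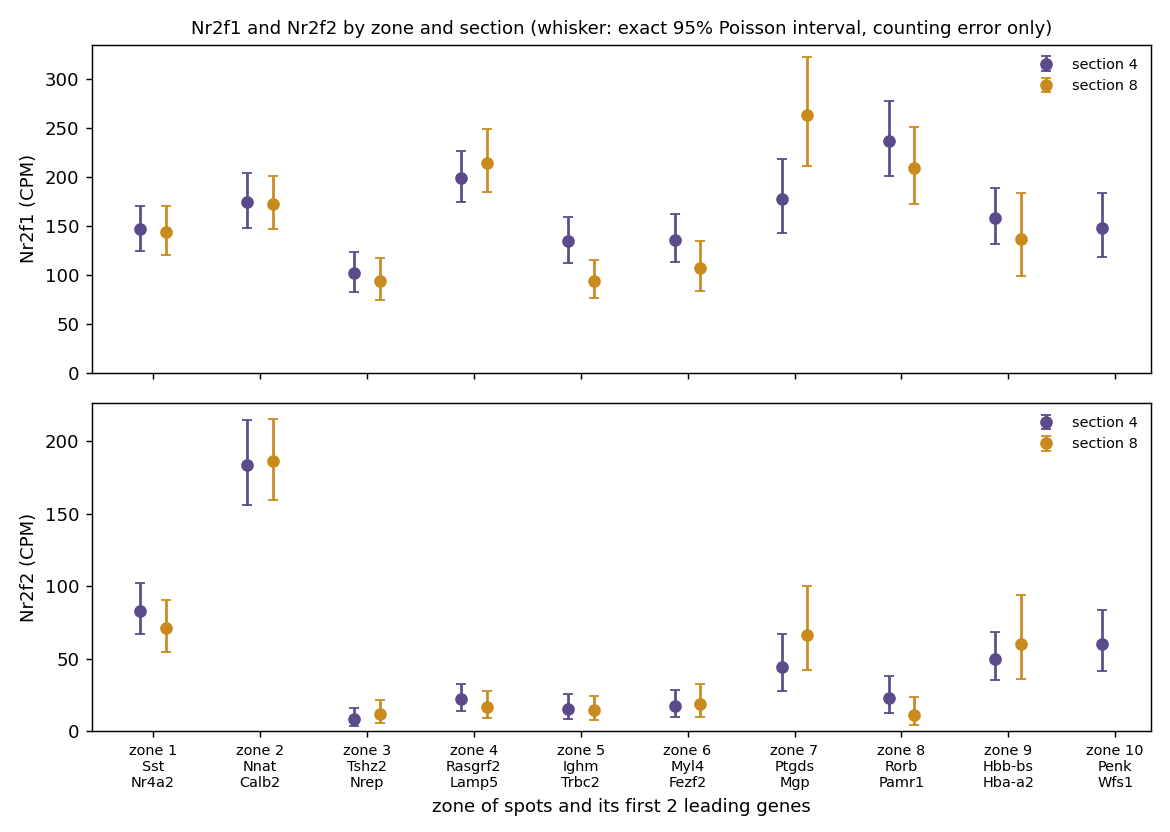
Nr2f1 (upper panel) and Nr2f2 (lower panel) by zone of spots, in CPM of summed counts, for section 4 and section 8, with exact 95% Poisson intervals as whiskers. Nr2f2 rises to 184 and 186 CPM in zone 2, while Nr2f1 runs from 102 to 237 CPM in section 4.

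Spots were also ranked by lists of cell type markers, taking the top 10% of each section (102 and 95 spots). The meningeal fibroblast list (Col1a1, Col1a2, Dcn, Igf2, Slc13a3; summed level 438 CPM in the top spots and 21.8 CPM in the rest of section 4, 340 and 13.05 CPM in section 8) went with the largest difference in Nr2f2 in section 4: 138 CPM in the top spots and 42.2 CPM in the rest. In section 8 the values were 112 and 47.7 CPM. Of these top spots 33 and 30 lay in zone 2, which Dcn helps to lead. Outside zone 2 Nr2f2 was still 90.8 CPM in the top spots against 31.5 CPM in section 4, and 49.0 against 28.6 CPM in section 8. The mural list (Pdgfrb, Acta2, Tagln, Rgs5) gave 76.8 against 47.8 CPM and 120 against 47.2 CPM, and outside zone 2 60.5 against 32.7 CPM and 64.4 against 27.0 CPM. The part of vessel and meningeal cells in the Nr2f2 values was not tested.

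Spots rich in interneuron markers were not higher in Nr2f2 in both sections for any of the 3 interneuron lists. The caudal ganglionic eminence list (Adarb2, Vip, Prox1, Htr3a) gave 44.8 CPM in its top spots and 51.0 CPM in the rest of section 4, and 39.1 and 54.8 CPM in section 8. Outside zone 2 this list gave 42.5 against 34.1 CPM in section 4 and 18.3 against 31.2 CPM in section 8. Its top spots had 185 and 178 CPM of Nr2f1, against 156 and 148 CPM in the rest. The layer 4 list (Rorb, Whrn, Scnn1a) went with higher Nr2f1 in both sections, 208 against 153 CPM and 184 against 148 CPM, and with lower Nr2f2, 30.9 against 52.6 CPM and 26.8 against 56.1 CPM. Unlike its genes in cells, the retrosplenial list (Tnnc2, Eps8l2, Scnn1a) did not go with higher Nr2f1. Its top spots had 152 against 160 CPM in section 4 and 130 against 154 CPM in section 8. The list was sparse: 52 and 46 of these top spots held none of its counts.

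Of the 5 genes that followed Nr2f2 most closely from spot to spot, 4 were among the 10 leading genes of zone 2 (Nnat, Dlk1, Hap1 and Calb2). Likeness was again Pearson's r of logged counts, taking the lower of the 2 sections. Over 10059 genes with a count in at least 5% of the spots of both sections, 24 had an r of at least 0.2 in both and 12 an r of -0.2 or lower. Nnat, the imprinted gene neuronatin, was first (r = 0.42 in section 4 and 0.40 in section 8). Dlk1, an imprinted Notch-pathway ligand (0.33 and 0.30), Ccn3, a matricellular protein (0.30 and 0.29), Hap1, the huntingtin-associated protein (0.26 and 0.28), and Calb2, calretinin (0.26 and 0.30), came next. Least like Nr2f2 were Ckb, brain creatine kinase (-0.31 and -0.35), Vsnl1, a calcium sensor (-0.30 and -0.30), and Mbp (-0.28 and -0.25). In section 8 alone the nuclear RNA Malat1 reached 0.40, but it had an r of -0.11 in section 4.

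No gene followed Nr2f1 to that extent: 0 of 10059 reached 0.2 in both sections. The first 5 were Ppp3ca, the calcineurin catalytic subunit (0.19 and 0.17), Calb1 (0.16 and 0.18), Nptxr, a neuronal pentraxin receptor (0.15 and 0.19), Rasgrf2 (0.14 and 0.14) and Bhlhe22 (0.13 and 0.14), a cortical area patterning factor. Mbp (-0.16 and -0.17), Mobp (-0.14 and -0.16) and Tshz2 (-0.13 and -0.12) stood at the other end. In counts this sparse such values are no finding. Across cells, Nr2f1 was higher with a Tshz2 count (636 of 765 cells) in 3 of 3 animals (83.8 against 55.7 CPM, means of 3 animals). With Lypd1, listed with Tshz2 as a near-projecting marker, Nr2f1 was lower in 3 of 3 animals (76.3 against 83.8 CPM). Nnat, the first follower of Nr2f2, had an r of -0.00418 and 0.0231 with Nr2f1, whereas Nptxr had 0.23 and 0.27 and Calb1 0.22 and 0.21 with Nr2f2. Spots of a section share its library, depth and tissue layout.

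**Figure D5:**
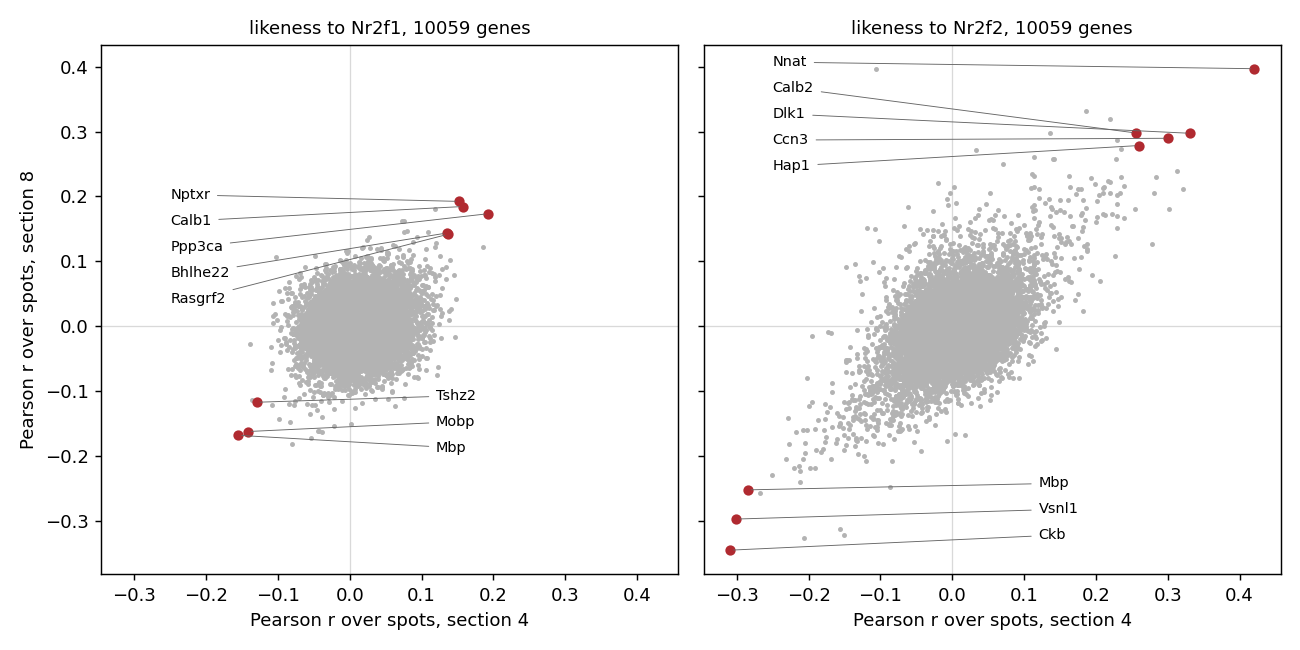
Pearson's r over spots between each of 10059 genes and Nr2f1 (left) or Nr2f2 (right), section 4 on the horizontal and section 8 on the vertical axis. Red points are the named genes. Nnat lies at 0.42 and 0.40 with Nr2f2, while every gene lies below 0.2 in at least 1 section with Nr2f1.

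Several genes around the COUP-TFs were also present in the spots. Of the NR2 list all 10 had a row, and Hnf4a and Hnf4g had 0 counts in both sections. Bcl11b, unlike Nr2f1 across cells, had an r of -0.11 and -0.07 with Nr2f1 and of 0.11 and 0.06 with Nr2f2 over spots. Crym had an r of 0.30 and 0.18 with Nr2f2 and of -0.04 and -0.07 with Nr2f1. Rxrg, a retinoid X receptor, reached 0.08 and 0.20 with Nr2f2.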

How the data were processed

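RNA was counted in 765 dissociated neurons (11 samples, 3 animals) and in 1973 tissue spots (2 sections). The authors deposited tables of raw counts (genes by cells, genes by spots), whole numbers with no normalization; the submitters' processing notes name Seurat and NCBIM37 for cells, and Seurat, Space Ranger, NCBIM37 and mm10 for sections, and other steps are not given in the sources used here. Whether counts of cells are reads or molecules is not stated, so intervals and floors (3 counts) cover counting error only. The deposited tables named the sample, animal and dissection level of each cell, and 0 columns had no sample. Which labelled section sample is section 4 or 8 is not known. Nr2f2 has no values for cells here. The 2 genes and the gene lists were chosen with earlier results of these data known.

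Clustering of cells and of spots used scanpy 1.11.5 (Python 3.11.15): counts scaled to 10000 and logged, 2000 most variable genes without the COUP-TF genes, 30 principal components, 15 neighbours, Leiden resolution 1, seed 1. Column names place each cell in its own well; doublets were not called; 162 slide barcodes occur in both sections. A cluster was called "like" a type where every fixed marker with a row led (at least 3, each in at least 25% of cells and 1 log2 unit above the mean of the other clusters) and its 10 leading genes held at least as many of its own as of any other type's markers. This rule, the zones, the splits by marker gene and the levels outside zone 2 were set after seeing the data.

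CPM are sums of counts over sums of totals, with sums of at least 5 cells per animal. Levels were compared in 9 sums by the quasi-likelihood test of edgeR 4.0.16 (R 4.3.3; filterByExpr and TMM, then glmQLFit and glmQLFTest, Benjamini-Hochberg adjustment), without a block; the SE is the log2 fold change over the square root of F. On simulated counts of 13628 genes for posterior against anterior, it recovered 57 of 100 genes changed by 2 log2 units and 80 of 100 changed by 3, with 3 unchanged genes called. The 3 levels come from the same 3 animals: deviations from level means correlated at 0.0373 to 0.256 within an animal (9 pairs) and -0.263 to 0.141 between animals (18 pairs), so the animal block is given beside results it changes. Animals are the replicates, and p-values measure the spread between these 3. Named genes were the 2 genes, the 5 most and 3 least like each (skipping predicted, ribosomal and mitochondrial genes; a count in at least 5% of cells or spots), and called or example genes of the lists. Alternatives were DESeq2 1.42.0, RLE scaling, no count filter, the block, sums per sample, other clustering settings, thinning, rank correlation and leaving out each animal. Results of 1 marker gene and of the spot list that holds it are not reported here.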

Additional observations from a re-analysis of the deposited data

Results flagged for a closer look

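The difference in Nr2f1 between dissection levels had opposite signs in some clusters. Posterior minus anterior, Nr2f1 differed by 56.4 CPM in animal 2 and 51.7 CPM in animal 3 in cluster 1 (Calb1), and by 66.2 and 12.1 CPM in the same animals in cluster 6 (Ptprm, Trib2). In cluster 2 (Thsd7a, Tnnc2) it differed by -40.8 CPM in animal 1 and -105.9 CPM in animal 3. Cluster 4, with values in all 3 animals, went both ways (-86.2, 52.9 and -54.2 CPM in animals 1, 2 and 3). Each value rests on at least 5 cells at both levels, clusters 1 and 2 share only animal 3, and the difference between clusters was not tested.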

How the results depend on the processing

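Cluster 2 kept its Nr2f1 level under every setting run: 129 to 152 CPM when 1 animal was left out and 130 to 143 CPM otherwise, against 138 CPM. The log2 fold change of Nr2f1 was not called in any fit, and changed sign without animal 1 (0.0766 at the medium and 0.0892 at the posterior level), with a range of -0.47 to 0.09 over all fits of the posterior level. The number of genes called at the posterior level was 1, but 56 with DESeq2, 14 with the replicate block (animal) and 45 in sums per sample with that block, and 1 to 2 without 1 animal (2 without animal 2 and 2 without animal 3); 594 genes had an unadjusted p under 0.05. At the medium level it was 1, but 6 with DESeq2, 0 in sums per sample with the block (754 at an unadjusted p under 0.05) and 0 to 1 without 1 animal; the block alone left it at 1 and changed no call of Nr2f1. The cause was not tested. Of the 5 genes named as most like Nr2f1 across cells, 2 stayed among the first 5 by Spearman's rho. Of the 5 named for Nr2f2 across spots, 2 were among the first 5 in section 4 alone and 1 in section 8 alone; for Nr2f1, 3 in each. Leiden resolution 0.5 matched clusters 3 and 7 to 1 merged cluster at 35.6 CPM (54.5 and 21.8 CPM apart). It matched clusters 1 and 8 to another merged cluster at 88.7 CPM (94.6 and 24.4 CPM apart), so cluster 8 had no level of its own there. The same resolution took Nr2f2 in zone 3 from 10.03 to 13.9 CPM (mean of the sections). Levels of Nr2f2 in cells and its correlation with Nr2f1 across cells were planned and not run, because Nr2f2 has no entry among the genes of the cells. At 425 and 341 counts, Nr2f2 levels of single zones rest on as few as 6 counts.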
